A study of Homo sapiens with 10 samples.

Results

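PRAME is 1 of 59204 human genes in SLAM-seq tables of K562, a chronic myeloid leukemia cell line with erythroid features, and it was chosen by its very high labelled counts in DMSO. Its labelled level against DMSO is therefore a description without a test, and its total RNA and the differences between drugs were tested. The 5 groups had 2 libraries each and were treated for 2 hours, with 100 µM 4-thiouridine in the last 1 hour. All are the same cell line with no engineered change. They received DMSO, actinomycin D (1 µg/mL), which blocks the DNA template, AZ-5576 (1 µM), an inhibitor of the pause-release kinase CDK9, JQ1 (1 µM), which displaces BET proteins from chromatin, or A-485 (1 µM), an inhibitor of the acetyltransferases CBP and p300. Reads with T-to-C conversions (labelled reads) stand for RNA synthesised while 4-thiouridine was present. All reads together stand for the pool of PRAME mRNA.

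PRAME (preferentially expressed antigen in melanoma) is a cancer-testis antigen, silent in most adult tissues, made in testis, and switched on in melanoma and in many leukemias. The protein is built of leucine-rich repeats and serves as a substrate receptor of a CUL2 ubiquitin ligase. It was also described as a repressor of retinoic acid receptor signalling that acts with the polycomb protein EZH2. Peptides of PRAME shown on MHC class I molecules are a target of T cell therapies, and DNA methylation of its promoter is a known means of its silencing.

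The gene (ENSG00000185686, protein coding) lies on the minus strand of hg38 chromosome 22 from 22547701 to 22559361. RefSeq (GRCh38.p14) lists 3 start sites for it, at 22559265, 22557632 and 22554182, and reads from the 3′ end do not tell which of them was used. The sequences upstream of the outermost start and of the start of ZNF280A, the neighbour whose labelled RNA is compared with PRAME's below, are given 5′ to 3′ as the stretch of the RefSeq window that lies outside annotated exons. Capitals mark CpG dinucleotides, the sites of DNA methylation. The PRAME stretch is chr22:22559408-22559515 (minus strand) and the ZNF280A stretch chr22:22520271-22520520 (minus strand).
PRAME: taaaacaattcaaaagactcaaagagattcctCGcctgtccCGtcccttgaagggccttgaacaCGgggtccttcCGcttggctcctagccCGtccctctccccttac
ZNF280A: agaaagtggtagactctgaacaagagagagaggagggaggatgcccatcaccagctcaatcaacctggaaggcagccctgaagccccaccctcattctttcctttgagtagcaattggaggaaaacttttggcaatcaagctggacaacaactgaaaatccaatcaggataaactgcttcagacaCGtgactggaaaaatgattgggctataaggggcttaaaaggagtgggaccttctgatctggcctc
The PRAME stretch held 5 CpG in 108 bases and the ZNF280A stretch 1 in 250 bases. The stretches are not matched in position. That of ZNF280A reaches its start at 22520270, while that of PRAME stops at 22559408, short of its start at 22559265. The PRAME stretch also lies within the span of the antisense gene named below (22559343 to 22566602). Over the full window of 300 bases around each start, the outermost PRAME start had 13 CpG, the middle one 12 and the innermost 4, and ZNF280A had 5. The median over 35116 promoter windows was 14. Both strands of each window were searched for 4 short motifs. The CCAAT box was present in 34.6% of all windows, the TATAAA letters of a TATA box in 11.5%, the GATAA core of a GATA factor site in 22.7% and the GGGCGG core of a GC box in 45.0%. The outermost and innermost PRAME windows held none of the 4. The middle window held CCAAT 1 time and GGGCGG 2 times, and the ZNF280A window held CCAAT 3 times and GATAA 1 time.

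Markers of the line were present, with counts for 11 of 11 K562 genes, led by the fetal globin genes (HBG1 had 26080 and 29526 total counts in DMSO). Of 7 markers of other blood lineages 2 were at 0 in every library, and the highest of the others reached 329 counts, while the epithelial gene EPCAM had 1003 and 1116 counts in DMSO. The germ cell genes DDX4 and DAZL had at most 1 count in any library. Human counts per library ran from 14916671 to 17918971, spike-in counts of fly RNA from 1817677 to 2212752, and labelled counts from 1410 (actinomycin D) to 448401 (DMSO). Levels are given per 1000 spike-in counts, which scale to the amount of purified RNA and not to cells, so fewer cells making PRAME and less PRAME RNA per cell cannot be told apart. The labels do not say that the replicates were separate cultures, so p-values measure only the spread between these libraries.

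In DMSO PRAME ranked 1 among 10749 nuclear protein-coding genes with labelled counts and 8 among all 14600 genes with such counts, by the mean of the spike-in-scaled libraries. Counts of a 3′ end library do not grow with transcript length, and no length scaling was applied. The raw labelled counts were 1697 and 1814 in DMSO, which is 0.378% and 0.418% of all labelled counts. The genes above it were mitochondrial genes and their nuclear copies, led by MTND1P23 with 9896 and 7515, and the snoRNA host gene SNHG3 with 3357 and 3098. The next protein-coding gene, the elongation factor EEF1A1, had 1791 and 1641, above PRAME in the first library and below it in the second. PRAME was selected on these values, which are shown for its place only. In total RNA PRAME had 44266 and 47331 counts in DMSO and ranked 30 of 13834 nuclear protein-coding genes with counts.

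JQ1 libraries held 1042 and 1023 labelled PRAME counts, A-485 libraries 726 and 751, AZ-5576 libraries 96 and 74, and both actinomycin D libraries 0. No drug group overlapped DMSO or another drug group, and how many other genes separate in this way was not counted. The DMSO counts chose the gene, and 99.2% and 94.7% of all genes were called lower with actinomycin D and AZ-5576. For A-485 against JQ1 the edgeR test given below missed the threshold. On the spike-in scale the labelled level was 0.895 and 0.998 in DMSO (0.947 ± 0.0726, SD, n = 2). It was 0.471 and 0.484 in the JQ1 libraries, 0.368 and 0.378 in the A-485 libraries, and 0.0525 and 0.0359 in the AZ-5576 libraries. The order of the group means from high to low was DMSO, JQ1, A-485, AZ-5576 and actinomycin D. Of all genes with labelled counts PRAME went from rank 1 among nuclear protein-coding genes in DMSO to rank 6 with JQ1, 18 with A-485 and 16 with AZ-5576. From rank 1 in the group that chose it the rank could only stay or fall, so these ranks do not measure a drug effect.

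**Figure D1:**
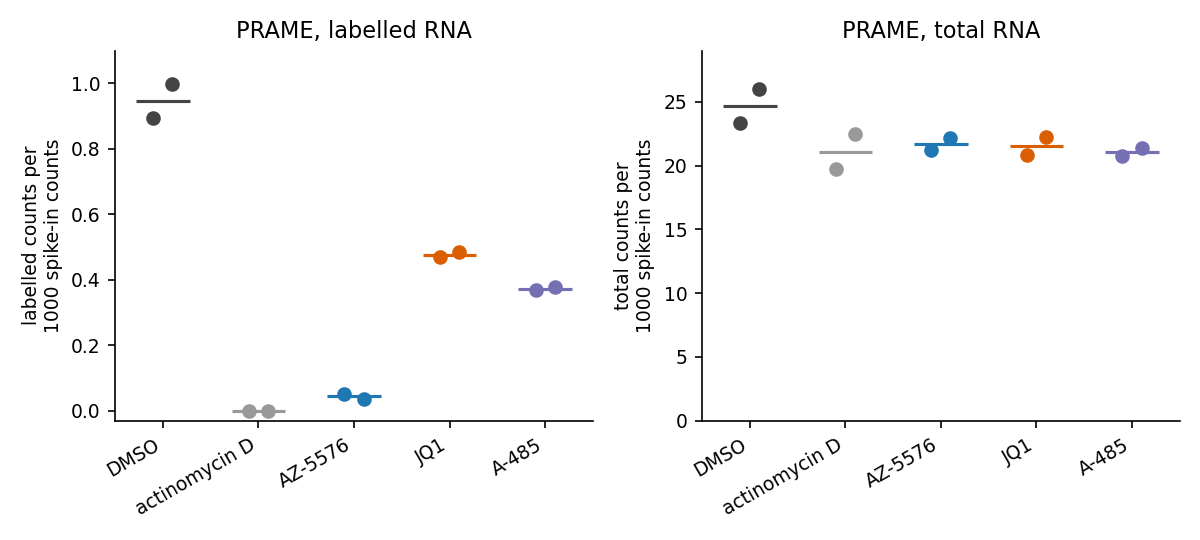
Labelled (left) and total (right) RNA of PRAME per 1000 spike-in counts in each of the 10 libraries (points) with the group mean (line). Labelled RNA steps down from 0.947 in DMSO to 0.478 with JQ1, 0.373 with A-485 and 0.0442 with AZ-5576, while total RNA of all 4 drug groups lies between 19.7 and 22.4 against 23.4 and 26.0 in DMSO.

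Actinomycin D left no labelled PRAME read. With the limit that a count of 0 allows (3 counts over the group), the labelled level was at least 1321-fold higher in DMSO, at least 667-fold higher with JQ1, at least 522-fold higher with A-485 and at least 61.1-fold higher with AZ-5576 than with actinomycin D. The labelled fit called 99.2% of genes lower with actinomycin D, and the 1410 and more labelled reads left in these libraries came from other genes, among them the mitochondrial tRNA gene MT-TF with 78 and 105.

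AZ-5576 left 4.67% of the labelled PRAME RNA of DMSO (0.0442 ± 0.0117, n = 2), against 12.5% of labelled RNA as a whole. That whole, here and for the other drugs, includes mitochondrial genes and their nuclear copies, so it does not stand for a typical gene. With AZ-5576 MTND1P23 kept 72.7% and MT-ND2 85.0%. MTND1P23 alone had 6507 of the 53503 labelled counts in the first AZ-5576 library. The fitted change was −4.43 on the log2 scale (SE 0.19), beside a median of −5.94 over 7996 genes, of which 94.7% were called lower and 0.2% higher. Only 5848 genes had any labelled count with AZ-5576, so that median rests in part on genes at 0. The 2 libraries of AZ-5576 were the least alike of any pair for PRAME. Among the 271 other genes with a mean of at least 200 labelled counts in DMSO, the median gene kept 4.71%, and PRAME on the same scale (0.5 counts added) kept 4.70%.

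JQ1 left 50.4% of the labelled PRAME RNA of DMSO (0.478 ± 0.00939, n = 2), against 64.7% of labelled RNA as a whole. The fitted change was −0.99 (SE 0.16) with a median of −0.85 over all genes, of which 28.6% were called lower and 1.26% higher, so PRAME lay close to the middle of the genes. On the TMM scale, which sets most genes to no change and moved the median to −0.02, the value for PRAME was −0.16.

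A-485 left 39.5% of the labelled PRAME RNA of DMSO (0.373 ± 0.00705, n = 2), although labelled RNA as a whole stood at 91.4%. The fitted change was −1.34 (SE 0.16) where the median gene was at −0.09, only 4.86% of genes were called lower, and 9.08% of all genes tested had a lower value than PRAME. TMM scaling gave −1.22 with the median gene at 0.04. Of the 271 other high-count genes the median gene kept 98.3% of its labelled RNA with A-485 and 28 genes (10.3%) kept less than PRAME. With JQ1 the median of the same genes was 68.1% and 81 genes kept less than PRAME, which was at 50.5%. All 3 comparisons share the DMSO libraries.

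**Figure D2:**
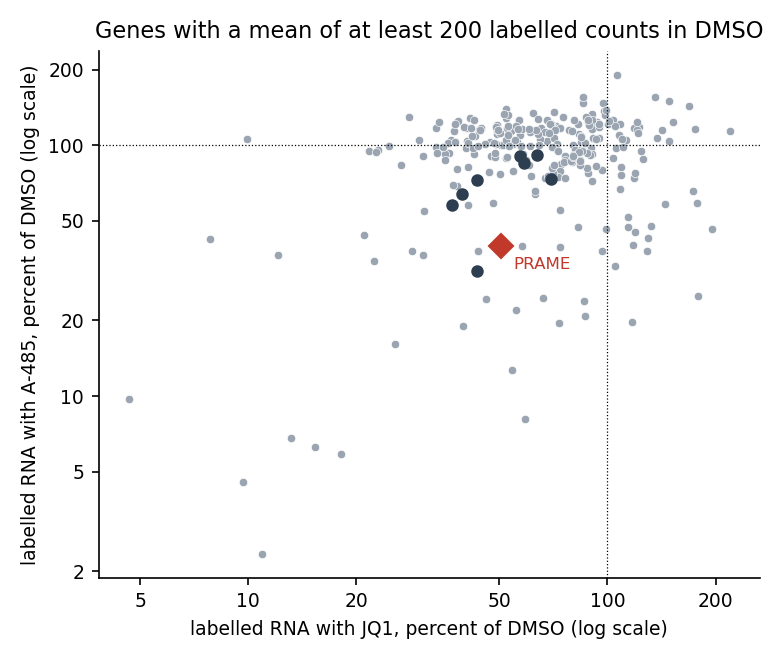
Labelled RNA kept with JQ1 (x axis) and with A-485 (y axis), in percent of DMSO on log scales, for PRAME (diamond), the 8 genes nearest to it in pattern (dark points) and the other genes with a mean of at least 200 labelled counts in DMSO. PRAME sits at 50.5% and 39.5%, below the band of genes that lies near 98.3% on the A-485 axis.

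The drugs were compared with each other as 3 pairs. Labelled PRAME RNA was higher with JQ1 than with AZ-5576 by 3.44 on the log2 scale (SE 0.19, n = 2, edgeR adjusted p = 7.4e-73), in a comparison in which 84.9% of genes were called higher, 0.388% were called lower and the median was 4.87. It was also higher with A-485 than with AZ-5576, by 3.08 (SE 0.19, adjusted p = 3.7e-59), where 91.8% of genes were called higher, 0.325% were called lower and the median was 5.69. Relative to the median gene PRAME was at −1.43 and −2.60 in these pairs. The second of them depended on the scaling. TMM in edgeR gave −0.31 (adjusted p = 0.16) and DESeq2 with median-ratio scaling gave 0.05 (adjusted p = 0.84). The labelled share described below, which needs no spike-in, gave 3.16 for the same pair (SE 0.22, edgeR adjusted p = 2.5e-22).

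A-485 against JQ1 gave a labelled PRAME level that was lower by 0.35 on the log2 scale (95% interval −0.66 to −0.05, n = 2), and edgeR's adjusted p of 0.075 missed the threshold of 0.05. Most genes moved the other way in this pair. The median was 0.72, 24.8% of genes were called higher and 3.14% lower with A-485, and 14.5% of genes had a lower value than PRAME. The call depended on the setting. DESeq2 on the same scale gave −0.35 with an adjusted p of 0.016, a fit of these groups alone gave an adjusted p of 0.035, and TMM scaling gave −1.06 with an adjusted p of 8.6e-10.

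The labelled share, the percentage of PRAME reads that carry conversions, needs no spike-in. It was 3.83% in both DMSO libraries, 2.26% and 2.18% with JQ1, 1.78% and 1.77% with A-485, and 0.247% and 0.162% with AZ-5576. With actinomycin D it was 0 of 88532 reads, which allows a share of up to 0.00339%. The 95% Wilson intervals, which cover counting error only, ran from 3.66 to 4.02% in the first DMSO library and from 1.65 to 1.91% in the first A-485 library, and intervals of JQ1 and A-485 did not overlap. Of the genes whose mean total count in DMSO reached 50 (10409 genes), the median share there was 3.71% and 51.1% had a lower share than PRAME, so the high labelled count of PRAME came with a share in the middle of the genes.

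**Figure D3:**
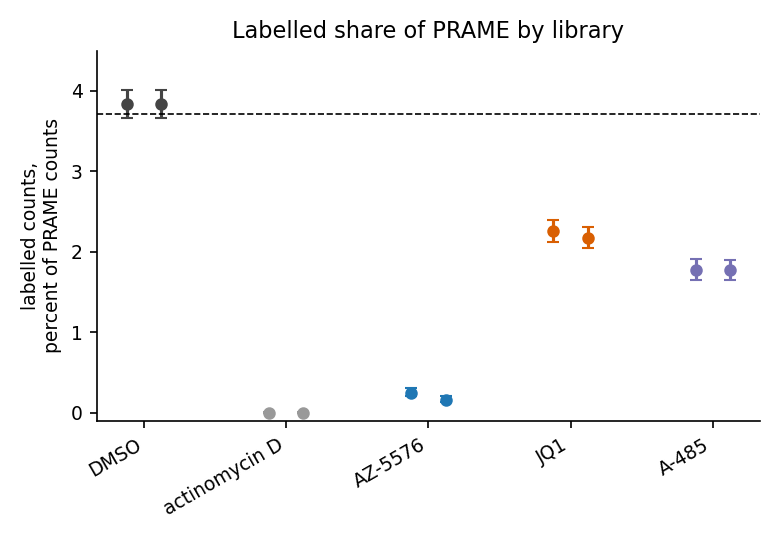
Labelled counts as a percentage of PRAME counts in each library, with 95% Wilson intervals, and the median share of 10409 genes in DMSO as a dashed line at 3.71%. The DMSO libraries lie at 3.83%, JQ1 near 2.22%, A-485 near 1.77% and AZ-5576 under 0.3%.

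The tests of the share followed the labelled level. It was higher with JQ1 than with AZ-5576 by 3.49 on the log2 scale (SE 0.22, edgeR adjusted p = 1.4e-24) and higher with A-485 than with AZ-5576 by 3.16 (SE 0.22, adjusted p = 2.5e-22), where 84.6% and 91.2% of genes were called higher and 0.201% and 0.126% lower. Between A-485 and JQ1 the share differed by −0.33 (95% interval −0.72 to 0.06, adjusted p = 0.27), which is within the error, and 1.55% of genes were called lower and 12.9% higher.

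Total RNA of PRAME changed far less than labelled RNA. It was 23.4 and 26.0 per 1000 spike-in counts in DMSO (24.7 ± 1.90, n = 2). Actinomycin D libraries had 19.7 and 22.4, AZ-5576 libraries 21.2 and 22.2, JQ1 libraries 20.8 and 22.3, and A-485 libraries 20.7 and 21.4. All 8 drug libraries lay below both DMSO libraries, and the drug groups overlapped each other. How many other genes lie this way was not counted, and the median gene was also below DMSO with each drug on this scale. Their means were 85.3%, 87.9%, 87.2% and 85.2% of DMSO in that order. The fitted differences from DMSO were −0.23 with actinomycin D (95% interval −0.42 to −0.04, edgeR adjusted p = 0.081), −0.19 with AZ-5576 (−0.38 to 0.00, adjusted p = 0.22), −0.20 with JQ1 (−0.39 to −0.01, adjusted p = 0.19) and −0.23 with A-485 (−0.42 to −0.04, adjusted p = 0.46).

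With a replicate block all 4 of these differences passed the threshold by edgeR (adjusted p of 0.0026 to 0.020). Without the block none of the 4 passed by edgeR or by DESeq2, and 3 of them had an unadjusted p under 0.05. Meanwhile 19.7%, 12.9%, 7.35% and 1.2% of genes were called lower in total RNA in the same comparisons. The median gene was at −0.27, −0.15, −0.19 and −0.04, so PRAME lay 0.04, −0.04, −0.003 and −0.19 from the median gene. On the TMM scale its value turned to 0.02 with actinomycin D and to 0.003 with JQ1. Actinomycin D passed the threshold when DMSO replicate 1 (−0.31, adjusted p = 0.047) or actinomycin D replicate 2 (−0.33, adjusted p = 0.0497) was left out. Between drugs, total PRAME RNA differed by −0.01 (JQ1 against AZ-5576), −0.04 (A-485 against AZ-5576) and −0.03 (A-485 against JQ1), and all 3 intervals lay between −0.23 and 0.18 (adjusted p of 0.97, 0.86 and 0.89). In these pairs 4.16%, 10.8% and 5.38% of genes were called higher and 0.707%, 1.21% and 1.2% lower.

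Of 165 other annotated genes within 1 Mb of PRAME, 127 had 0 counts in every library, beside 52.2% of all genes in the table. In the same window 22 passed the filter in total RNA and 11 in labelled RNA. An antisense gene (ENSG00000220891) overlaps the 5′ end of PRAME by 19 bases and had 2 and 4 total counts in DMSO and 0 labelled counts in every library. Whether counting used the strand is not given in the sources used here, so reads in that overlap cannot be assigned to either gene. BCR, the partner of ABL1 in the fusion that drives this leukemia, lies 620 kb away and had 1 and 0 labelled and 52 and 43 total counts in DMSO.

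ZNF280A, a zinc finger gene on the same strand that starts 27.4 kb from the end of PRAME, was the one neighbour of 11 called lower with A-485 (4.86% of all genes). It is also a member of the cancer-testis list below. DMSO libraries had 100 and 89 labelled counts of it, A-485 libraries 36 and 25, JQ1 libraries 152 and 99, AZ-5576 libraries 4 and 0, and both actinomycin D libraries 0. It fell by 1.72 on the log2 scale with A-485 (SE 0.35, n = 2, edgeR adjusted p = 6.3e-05), and was lower with A-485 than with JQ1 by −1.90 (SE 0.35, adjusted p = 1.6e-06). With JQ1 the fitted difference from DMSO was 0.18 (adjusted p = 0.67), and the raw counts of these groups overlapped.

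Total RNA of ZNF280A also fell within 2 hours with 3 of the drugs. DMSO libraries had 277 and 286 total counts, actinomycin D libraries 93 and 75, AZ-5576 libraries 42 and 78, and A-485 libraries 167 and 145. JQ1 libraries had 435 and 399, a difference of 0.35 that did not pass the test (edgeR adjusted p = 0.27). It fell by 1.91 with actinomycin D (edgeR adjusted p = 8.2e-09), fell by 2.30 with AZ-5576 (adjusted p = 3.7e-10) and fell by 0.94 with A-485 (adjusted p = 0.0048). The A-485 call was lost when DMSO replicate 2 (adjusted p = 0.17) or A-485 replicate 2 (adjusted p = 0.22) was left out, and in unlabelled counts (−0.67, adjusted p = 0.30). In DMSO 33.6% of ZNF280A reads were labelled, against 3.83% for PRAME.

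ZNF280B, the related zinc finger gene 38.5 kb from PRAME, had 134 and 190 labelled counts in DMSO and 159 and 238 with A-485, and did not pass the test. Of the 11 neighbours 4 were called lower in labelled RNA with JQ1, a share near that of all genes (28.6%). These were YDJC, which fell by 2.21 (SE 0.23, edgeR adjusted p = 2.6e-19), PPM1F, a phosphatase, which fell by 1.82 (SE 0.56, adjusted p = 0.0074), SDF2L1, an endoplasmic reticulum protein, which fell by 1.56 (adjusted p = 2.0e-06), and UBE2L3, a ubiquitin-conjugating enzyme, which fell by 1.05 (adjusted p = 1.8e-05). All 4 lie 595 to 924 kb from PRAME. TMM kept the call for YDJC and lost it for the other 3 (adjusted p of 0.28, 0.089 and 0.58), and PPM1F was also lost without DMSO replicate 2 (adjusted p = 0.21) or JQ1 replicate 2 (adjusted p = 0.092). For A-485 against JQ1, 1 neighbour was lower (ZNF280A) and 6 were higher, beside 3.14% and 24.8% of all genes.

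**Figure D4:**
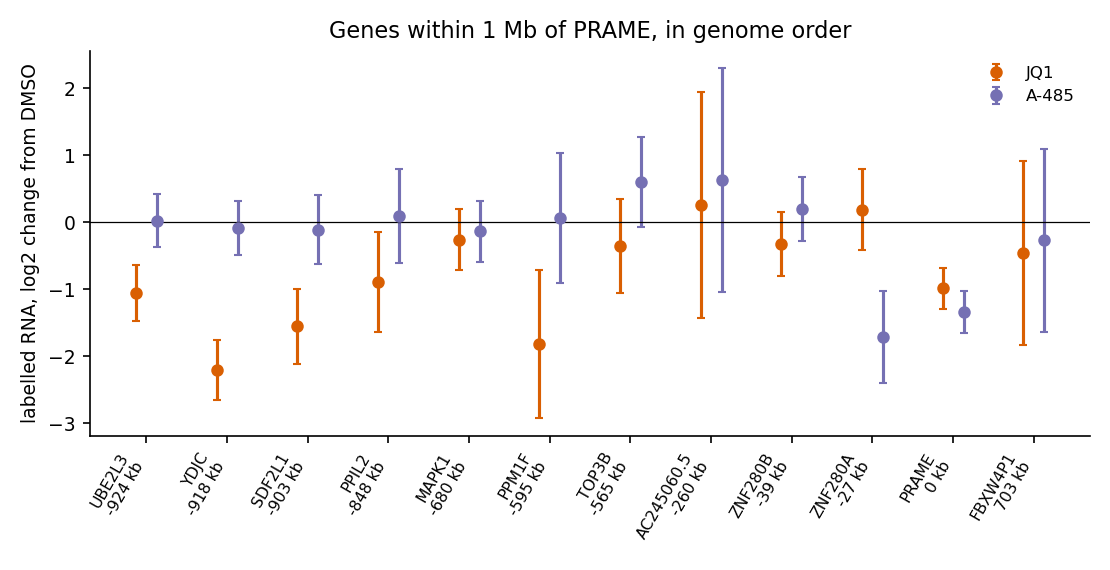
Change in labelled RNA from DMSO (log2, with 95% intervals) with JQ1 and A-485 for PRAME and the 11 genes within 1 Mb that passed the labelled filter, in genome order with the gap to PRAME in kb. With A-485 ZNF280A (−1.72) is the one of the 11 neighbours with an interval wholly below 0, and with JQ1 YDJC (−2.21) is lowest. PRAME (−0.99 and −1.34) is drawn as a description with its error, not as a test.

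PRAME was set beside 94 other cancer-testis and germline antigens in the tables. Of these 27 had 0 counts in every library and 25 had a mean total count of 100 or more in DMSO. The most abundant by counts after PRAME was GAGE1, a member of a family of near-identical X-linked copies whose reads may be split between them, with 9323 and 9975 total and 55 and 59 labelled counts in DMSO. In labelled RNA 16 passed the filter. Most members named from this and the later lists were picked by their labelled counts in DMSO. Those counts also enter their labelled changes from DMSO, so a fall is favoured and the p-values carry that limit. With JQ1 edgeR called 6 of 16 lower (28.6% of all genes), with a median of −0.74 against −0.85 over all genes. It called 0 higher (1.26% of all genes), as did DESeq2 on the same scale and an unadjusted p under 0.05. DESeq2 gave 4 lower, and TMM scaling gave 1 lower and 2 higher (5.19% and 5.55% of all genes by TMM). MAGEA12, a MAGE family antigen, fell from 46 and 63 labelled counts to 14 and 17 (log2 change −2.03, SE 0.46, edgeR adjusted p = 2.0e-04, and 0.083 on the TMM scale).

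With A-485 2 of the 16 antigens were called lower by edgeR and by DESeq2 (4.86% of all genes by edgeR), and the list's median was 0.10 against −0.09 over all genes. They were ZNF280A and the RNA-binding protein IGF2BP3, which fell by 1.94 (SE 0.57, edgeR adjusted p = 0.019). IGF2BP3 lost the call without any 1 of the 4 libraries compared (adjusted p of 0.077 to 0.39). MAGEA12 had 56 and 74 labelled counts with A-485, and the kinesin KIF2C had 95 and 138 against 92 and 98 in DMSO. In total RNA edgeR called 5 of 41 antigens lower with actinomycin D, 4 with the CDK9 inhibitor, 3 with JQ1 and 1 (ZNF280A) with A-485, beside 19.7%, 12.9%, 7.35% and 1.2% of all genes. The number called higher was 0 in each by edgeR and DESeq2 (0.336%, 0.782%, 0.837% and 0.0343% of all genes by edgeR), with at most 2 at an unadjusted p under 0.05.

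PRAME belongs to a large family of related genes, most of them in clusters on chromosome 1. Of 25 paralogues in the tables, 23 had 0 counts in every library, so no reads were assigned to them. LRRC14, a leucine-rich repeat relative, was the one tested and had 35 and 27 labelled counts in DMSO, 36 and 19 with JQ1, and 33 and 55 in the A-485 libraries, and did not pass the test with either.

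The CUL2 ligase that PRAME serves joins substrates to ubiquitin through elongins and exchangeable receptors. All 19 listed members had counts and 17 were tested in labelled RNA. With JQ1 2 were called lower (28.6% of all genes), the elongin ELOC and FEM1A, another substrate receptor of CUL2. FEM1A fell from 133 and 119 labelled counts to 58 and 35, a log2 change of −1.66 (SE 0.31, edgeR adjusted p = 2.9e-06, and 0.067 on the TMM scale). With A-485 edgeR and DESeq2 called 0 of 17, of which 2 were higher at an unadjusted p under 0.05, and FEM1A had 134 and 139 counts. Over all genes edgeR called 4.86% lower and 0.163% higher with A-485. The list's medians were −0.83 and 0.05, against −0.85 and −0.09 over all genes.

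EZH2, the methyltransferase of polycomb repressive complex 2, had 208 and 238 labelled counts in DMSO, 201 and 216 with JQ1, and 246 and 232 in the A-485 libraries, and was not called with either. Of 11 members tested 3 were called lower with JQ1 by edgeR (PHF19, AEBP2 and the histone chaperone RBBP4) and 1 by DESeq2. The edgeR count is near the share of all genes (28.6%). With A-485 both called 0 (4.86% of all genes by edgeR), with 2 lower at an unadjusted p under 0.05. The medians were −0.66 and −0.39, against −0.85 and −0.09 over all genes. PHF19, which guides the complex to chromatin, fell from 129 and 159 labelled counts to 21 and 10, a log2 change of −3.43 (SE 0.38, edgeR adjusted p = 4.6e-17). On the TMM scale 1 of the 11 was called lower with JQ1, beside 5.19% of all genes.

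Of the listed genes of retinoic acid signalling, a pathway that PRAME was described as repressing, 13 were tested in labelled RNA. With JQ1 3 were called lower (NCOR1, DHRS3 and RARG) and with A-485 4 (RDH11, DHRS3, RARG and TGM2), beside 28.6% and 4.86% of all genes. DESeq2 gave 2 lower with each drug. The list's median was −0.64 with JQ1 and −0.65 with A-485, against −0.85 and −0.09 over all genes. DHRS3, a retinaldehyde reductase, had 107 and 86 labelled counts in DMSO, 8 and 3 with JQ1, and 5 and 1 in the A-485 libraries. It fell by 4.32 with JQ1 (SE 0.54, edgeR adjusted p = 6.1e-13) and by 5.04 with A-485 (SE 0.60, adjusted p = 1.5e-14). RDH11, a retinol dehydrogenase, fell by 1.08 with A-485 (adjusted p = 0.011) and lost the call without any 1 of the 4 libraries (adjusted p of 0.13 to 0.25). TMM scaling gave 2 lower with JQ1 and 3 with A-485, beside 5.19% and 4.18% of all genes.

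The DNA methylation machinery, which silences PRAME in other cells, had 12 members tested. With JQ1 5 were called lower (TET1 and ZBTB33 among them) and with A-485 0 by edgeR and DESeq2 (2 lower at an unadjusted p under 0.05), beside 28.6% and 4.86% of all genes. The medians were −0.92 and −0.27, against −0.85 and −0.09 over all genes. ZBTB33, a reader of methylated DNA, fell from 62 and 83 labelled counts to 22 and 23 with JQ1, a log2 change of −1.90 (SE 0.42, edgeR adjusted p = 8.9e-05, and 0.082 on the TMM scale). TMM called 1 of 12 lower with JQ1, beside 5.19% of all genes. UHRF1, which brings the maintenance methyltransferase to new DNA, had 45 and 55 labelled counts in DMSO, 30 and 26 with JQ1, and 62 and 47 in the A-485 libraries. The CCAAT-binding factor nuclear factor Y had 2 subunits tested, NFYA and NFYC, and 0 were called with either drug by edgeR or DESeq2, also at an unadjusted p under 0.05. Over all genes edgeR called 28.6% lower with JQ1 and 4.86% with A-485.

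K562 grows on the kinase made by the BCR-ABL1 fusion. The fusion transcript ends in ABL1 sequence, so its 3′ reads count as ABL1, which had 124 and 112 labelled counts in DMSO, 140 and 95 with JQ1, and 156 and 135 in the A-485 libraries. Of 19 genes of this signalling tested, 6 were called lower with JQ1 (CRKL, CISH, SOS1, STAT5A, PIM1 and BCL2L1) and 4 with A-485 (CISH, PIM1, BCL2L1 and LYN), beside 28.6% and 4.86% of all genes. The medians were −0.86 and −0.39, against −0.85 and −0.09 over all genes. TMM scaling gave 3 lower with each drug, beside 5.19% of all genes with JQ1 and 4.18% with A-485. CISH, a feedback inhibitor induced by STAT5, had 121 and 122 labelled counts in DMSO, 42 and 47 with JQ1, and 15 and 12 in the A-485 libraries. It fell by 3.25 with A-485 (SE 0.42, edgeR adjusted p = 3.0e-12) and fell by 1.67 with JQ1 (SE 0.36, adjusted p = 8.2e-05, and 0.12 on the TMM scale). Its total counts fell with A-485 from 275 and 234 to 54 and 47, a log2 change of −2.42 (adjusted p = 9.8e-09). PIM1, a survival kinase, fell by 3.64 with A-485 (adjusted p = 2.0e-12) and BCL2L1, an apoptosis inhibitor, fell by 2.15 (adjusted p = 6.4e-04).

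PRAME peptides reach T cells only on MHC class I. Of 18 genes of this pathway 8 were tested in labelled RNA. With JQ1 edgeR called 2 lower (ERAP1 and TAP2; 0 by DESeq2) and 1 higher, the chaperone CALR, which went from 186 and 186 to 355 and 349 labelled counts (0.70, SE 0.22, edgeR adjusted p = 0.0072). Over all genes 28.6% were called lower and 1.26% higher with JQ1. CALR lost the call without DMSO replicate 1 (adjusted p = 0.10) or DMSO replicate 2 (adjusted p = 0.075). On the TMM scale 3 were higher with JQ1, beside 5.55% of all genes. With A-485 edgeR and DESeq2 called 0 of 8 (2 lower at an unadjusted p under 0.05), beside 4.86% of all genes lower and 0.163% higher by edgeR. B2M, the light chain of MHC class I, had 132 and 116 labelled counts in DMSO, 146 and 142 with JQ1, and 61 and 105 in the A-485 libraries, and was not called with either.

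The genes nearest to PRAME in pattern were found by the distance over 7 log2 ratios to DMSO (labelled RNA with 3 drugs and total RNA with 4), among the 271 other genes with a mean of at least 200 labelled counts in DMSO. The nearest were PTP4A2 at 0.74, ARHGEF2 at 0.98, PCBP1 at 1.02, LDHA at 1.05, VAPA at 1.15, CHCHD2 at 1.28, HNRNPK at 1.31 and ZC3H15 at 1.32, and the median gene was at 2.13. All ratios share the DMSO libraries. PTP4A2, a phosphatase, went from 380 and 337 labelled counts in DMSO to 162 and 146 with JQ1, and 233 and 206 in the A-485 libraries. The log2 changes were −1.44 and −0.80, given with no test because they entered the choice of the gene.

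ARHGEF2, a guanine nucleotide exchange factor, had 211 and 217 labelled counts in DMSO, 101 and 114 with JQ1, and 88 and 55 in the A-485 libraries. The log2 changes were −1.21 (SE 0.26) and −1.67 (SE 0.27), also with no test. Of the 8 nearest genes it was the one whose A-485 ratio (−1.67) lay below that of PRAME (−1.34), and the others ranged from −0.80 to −0.13.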

How the data were processed

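SLAM-seq tables of K562 cells were analysed as deposited. Per the file headers the deposited values are raw counts for each gene: human reads in total, human reads with T-to-C conversions, and fly spike-in reads. Per the submitters' processing notes, bcl2fastq 2.17.1.14, Trim Galore 0.6.5, bedtools, hg38 and dm6 were used. Libraries were QuantSeq 3′ mRNA with 5% fly RNA added after purification, per the labels' protocols. Which aligner and conversion caller made the tables is not given in the sources used here. Symbols and positions came from GENCODE release 29 (55838 of 59204 identifiers matched).

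The two-sided quasi-likelihood test of edgeR 4.0.16 (R 4.3.3, robust) was run with spike-in totals as library sizes and all 10 libraries in 1 fit. Genes needed 10 counts in 2 or more libraries (7996 labelled, 14572 total, 7960 share), and p-values were adjusted by Benjamini-Hochberg over all of them, with a threshold of 0.05. The share fit modelled labelled and unlabelled counts together. The common biological coefficient of variation was 24.8% (labelled), 10.9% (total) and 17.8% (share). A permutation of 2 against 2 libraries cannot give a two-sided p below 0.33. The fits were tested on simulated data.

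The gene, lists, markers and tests were chosen with earlier results of these data known. Named genes were PRAME, genes within 1 Mb that passed the labelled filter, BCR, ABL1, up to 4 members of each list and 10 genes with the most labelled counts in DMSO, and the 8 genes nearest in pattern (0.5 counts added). IGF2BP3, PIM1, BCL2L1, the antisense gene and further list members named as called fall outside this rule and were chosen after their values were seen. Alternatives were TMM, DESeq2 1.42.0, no filter (1 count or more), the groups compared alone, a replicate block, unlabelled counts and leaving out each library. The values of 1 listed gene are not reported here.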

Additional observations from a re-analysis of the deposited data

How the results depend on the processing

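The settings were compared over 158 values for PRAME other than the first choice, of which 132 were kept and 10 changed sign. A tested value was kept if it had the same direction and side of the threshold. Labelled RNA against DMSO had no test, and there a value was kept if its sign held and its shift was within the error of a difference. The changes of sign were all in total RNA near 0 or under a scale that does not use the spike-in. For total RNA against DMSO, TMM gave 0.024 (actinomycin D) and 0.0027 (JQ1) and DESeq2 with median ratios 0.025 and 0.0013. For total RNA with JQ1 against AZ-5576 the values were 0.037 and 0.034, and the range without 1 library was −0.058 to 0.036 (above 0 without AZ-5576 replicate 2 or JQ1 replicate 1). For total RNA with A-485 against JQ1 that range was −0.080 to 0.014 (above 0 without JQ1 replicate 2). Labelled RNA with A-485 against AZ-5576 gave −0.31 by TMM and 0.046 by median ratios. Labelled RNA with A-485 against JQ1 gave −1.06 by TMM, −1.08 by median ratios, −0.35 by DESeq2 on the spike-in scale and −0.35 in a fit of those groups alone, all past the threshold, and −0.37 to −0.33 without 1 library (adjusted p of 0.15 to 0.26). Total RNA with actinomycin D ranged from −0.33 to −0.14 without 1 library. The cause of these changes was not tested.

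Whether the replicate numbers pair the libraries is not settled. The correlation of same-numbered deviations ran from −0.01 to 0.15 in labelled RNA and from −0.06 to 0.23 in total RNA. This correlation cannot see a shift shared by all genes. Human counts per spike-in count were higher in replicate 2 of every group, with 8.18 and 8.99 in DMSO and 8.36 and 8.48 with A-485. With the replicate block total RNA of PRAME passed the threshold in all 4 comparisons with DMSO, at −0.23 (adjusted p = 0.0026), −0.18 (0.019), −0.20 (0.017) and −0.23 (0.020), and labelled RNA of the drug pairs kept its calls.

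Counts of genes depend on the scale. Labelled genes lower than in DMSO were 7933, 7574, 2286 and 389 (for actinomycin D, for AZ-5576, for JQ1, for A-485). TMM gave 628, 2206 and 415 for the first 3 and median ratios 634, 2705 and 404. Genes higher were 0, 16, 101 and 13. TMM gave 34, 471, 444 and 26 and median ratios 47, 363 and 325 for the first 3. For A-485 no filter gave 3 higher and the groups alone 57. Without 1 library the genes lower were 1049 to 1675 with JQ1 and 191 to 217 with A-485, and the genes higher 5 to 11 with AZ-5576, 51 to 61 with JQ1 and 1 to 4 with A-485. In A-485 against JQ1 edgeR called 1984 higher and 251 lower, and TMM 434 and 673. In the share of the same pair 1030 and 123 were called, and 177 and 28 by DESeq2. In total RNA edgeR called 2874, 1878, 1071 and 175 lower and 49, 114, 122 and 5 higher. TMM gave 1153, 1210 and 288 lower for the first 3 and 791, 546, 214 and 13 higher, unlabelled counts gave 1302, 923, 625 and 110 lower, and the replicate block gave 1972 lower with JQ1. Labelled values of PRAME rest on as few as 74 reads in a library with AZ-5576, and each group has 2 libraries.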
